A study of Mus musculus with 4 samples.

Results

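The genes described here are 38 listed mouse genes of the mitotic spindle, kinetochore and cytokinesis, given as a list of names drawn up with earlier results of these data known. A platform annotation table assigned a transcript cluster (a set of array probes read as 1 value) to exactly 1 of these symbols for 37 of the 38, out of 20252 genes tested. Ccnb1, which encodes cyclin B1, had no such cluster and is not described. Where a gene had several clusters, the cluster of highest mean over the 4 arrays stood for it.

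Mitosis is driven by cyclin-dependent kinase 1 with its A and B cyclins, after which kinetochores assembled on the centromeres attach chromosomes to spindle microtubules. A checkpoint holds the anaphase-promoting complex inactive until every chromosome is attached, and the central spindle then directs the cleavage of the cell. In the embryonic retina the dividing cells are the retinal progenitors, which leave the cell cycle as they become neurons, so transcripts of this machinery mark the dividing part of the tissue.

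The 2 labelled knockout arrays came from neuroretina of embryos with a Chx10-Cre transgene and both Lhx2 alleles flanked by loxP sites, and the 2 control arrays from neuroretina with the same Lhx2 lox/lox alleles and no Cre named. All embryos were of the CD-1 strain at embryonic day 13.5. Chx10 is a gene of retinal progenitors, so Cre made under its control acts in these cells and their descendants, and cells that never made Cre keep Lhx2, a LIM-homeodomain factor of eye development. Only the labelled knockout group carries the transgene, so its own effect and the loss of Lhx2 cannot be told apart. The labels do not say whether replicates were separate embryos, litters or pools, and p-values therefore reflect a spread between arrays that may be technical.

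Values are log2 signals from which the median over the 20252 genes of the same array was subtracted, so 0 is the median gene of an array. That median was 4.25 and 4.63 in labelled knockout replicates 1 and 2, and 4.14 and 4.58 in control replicates 1 and 2, and the deposited arrays therefore stood at levels that followed the replicate number. Lhx2 itself had centred signals of 2.13 and 1.87 in the labelled knockout arrays, against 2.22 and 1.91 in the control arrays (log2 difference -0.06, SE 0.23, limma adjusted p = 0.918). The exons covered by its probes are not stated in the sources used here, so Lhx2 does not check the genotype labels, and each direction below rests on those labels. Of 9 measured genes on a list of retinal progenitor markers, 9 lay above the 75th percentile of cluster signals on each of the 4 arrays, as did 13 of 13 retinal neuron markers. That percentile was taken over all 112205 clusters, most of them unnamed, and is a low cut. It lay below the median gene on each array, for example 3.98 against 4.25 in labelled knockout replicate 1.

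The comparison of the genotypes asked how the transcripts of cell division differed where Lhx2 was to be removed from progenitors. All 37 measured mitosis genes had a lower mean signal in the labelled knockout arrays than in the control arrays. Their median log2 difference, labelled knockout minus control, was -1.08, which is 2.12-fold lower. The differences lay close together, with the middle part of the list between -1.13 (25th percentile) and -0.95 (75th percentile) and the extremes at -1.74 for Nuf2 and -0.70 for Ccnb2. Over all 20252 genes the median difference was -0.14, with the 25th and 75th percentiles at -0.28 and 0.03, and 72.3% of all genes lay below 0. By that 75th percentile none of these 37 genes was dim, in that 0 of 37 had both labelled knockout signals under it, against 9122 of all 20252 genes.

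No single mitosis gene passed the test across all genes. At an adjusted p of 0.05 in limma, 0 of 37 were called in either direction, against 66 genes lower (0.326%) and 52 genes higher (0.257%) among all genes. At an unadjusted p under 0.05, 36 of the 37 were lower and 0 higher, against 7.84% lower and 3.6% higher among all genes. At an adjusted p of 0.10, 9 of the 37 were lower, where 1.01% of all genes were: Cdca5, Ndc80, Birc5, Spc24, Nusap1, Bub1, Cdca8, Aurkb and Cenpe. With 1 array left out in turn, the number called at 0.05 was 1 without labelled knockout replicate 1 (Aurkb), 2 without labelled knockout replicate 2 (Nuf2 and Nusap1), 15 without control replicate 1 and 6 without control replicate 2. Among all genes, those called lower numbered 183, 186, 374 and 301 in the same 4 fits, more than the 66 with every array in. Each such fit has 1 array in a group, so spread is seen only between the 2 arrays of the other genotype, and limma shares it across genes. Nuf2 was called without control replicate 1, at -2.52, although its labelled knockout signals were 1.48 and 3.76. A gene's own spread thus had little weight in that fit, and such counts say little about single genes. With 2 arrays against 2, an exact permutation test of 1 gene cannot go below a two-sided p of 0.333.

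Set against each other by replicate number, the genotypes differed in the same direction for every member. All 37 were at least 1.5-fold lower in the labelled knockout array in replicate 1 and also in replicate 2, as were 4.22% of all genes and 6.96% of the genes at or above the median level. In 36 of 37, both labelled knockout signals lay below both control signals, against 35.1% of all genes, and Nuf2 was the exception. Between the replicate 1 arrays the members' median difference was -0.96, and between the replicate 2 arrays -1.16, and 35 of 37 differed more in replicate 2 (all but Nuf2 and Nusap1). Of all 20252 genes, 7804 had a lower difference in replicate 2 than in replicate 1. Labelled knockout replicate 2 held the lowest signal of 26 members and labelled knockout replicate 1 that of the other 11, while control replicate 2 held the highest signal of 22 members and control replicate 1 that of the other 15. Counts by array were not made for all genes.

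**Figure D1:**
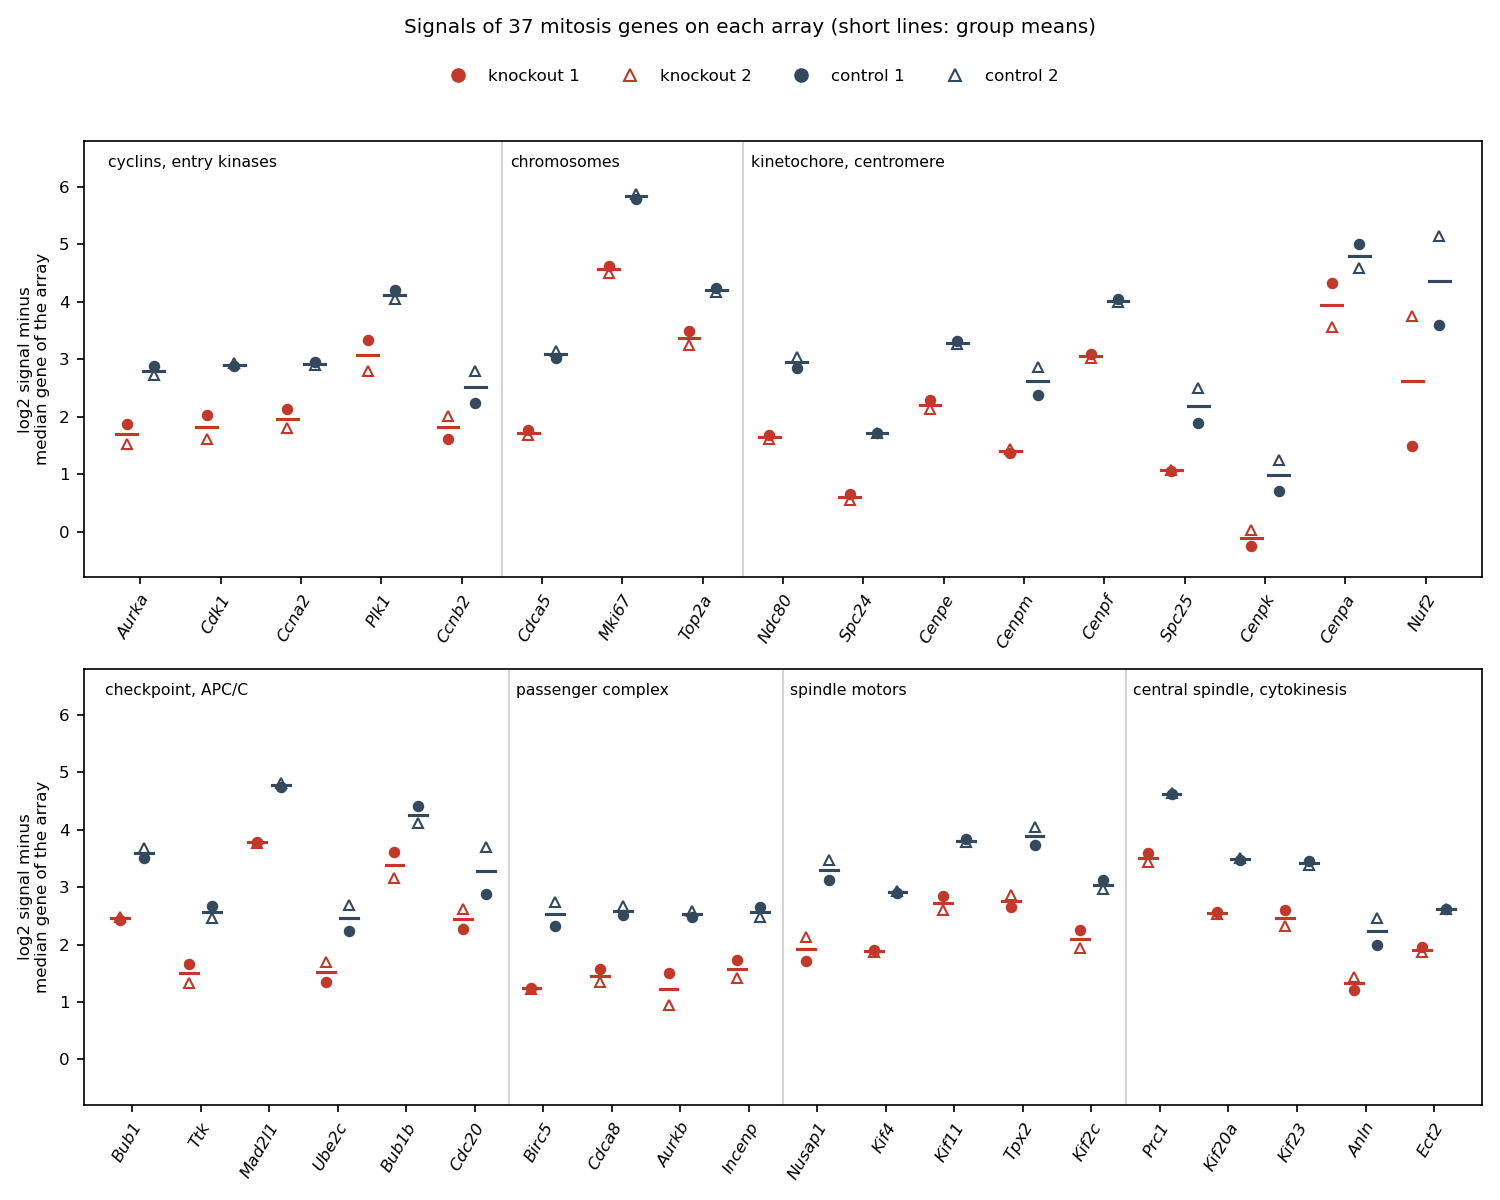
Centred log2 signal (y axis, log2 units from the median gene of the array) of 37 mitosis genes grouped by role, with the 2 labelled knockout arrays (red) left of the 2 control arrays (dark), circles for replicate 1, triangles for replicate 2 and short lines for group means. Red points lie below dark points in 36 of 37 genes, and in Nuf2 the groups overlap.

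Among the cyclins and the kinases that start mitosis, 5 of 6 listed genes were measured, with a median difference of -1.06. Aurka, which encodes the centrosomal kinase Aurora A, differed most of these, with 1.88 and 1.53 in the labelled knockout arrays, against 2.89 and 2.72 in the control arrays (difference -1.10, SE 0.23, limma adjusted p = 0.110). Cdk1, the kinase that triggers mitosis, had 2.04 and 1.61 in the labelled knockout arrays, against 2.89 and 2.93 in the control arrays (-1.08, SE 0.23, adjusted p = 0.120). In both genes the labelled knockout arrays were further apart than the control arrays, with labelled knockout replicate 2 the lowest of the 4. Ccnb2, which encodes cyclin B2, was with Ect2 the closest to 0 of all members, at 1.61 and 2.01 in the labelled knockout arrays, against 2.23 and 2.8 in the control arrays (-0.70, SE 0.28, adjusted p = 0.407). Its groups were separated by only 0.22 log2 units. Ccna2 (cyclin A2) lay at -0.95 and Plk1, the Polo kinase of spindle assembly and mitotic exit, at -1.06.

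The 3 genes of chromosome structure and cohesion had a median difference of -1.26. Cdca5 encodes sororin, which keeps sister chromatids joined, and had the smallest p of any member. Its signals were 1.77 and 1.67 in the labelled knockout arrays, against 3.02 and 3.15 in the control arrays (-1.36, 2.58-fold lower, SE 0.21, adjusted p = 0.0575). The gap between the groups was 1.25 log2 units, larger than the 0.10 between the labelled knockout arrays or the 0.13 between the control arrays. Mki67, the proliferation marker Ki-67 that coats mitotic chromosomes, had 4.63 and 4.51 in the labelled knockout arrays, against 5.79 and 5.87 in the control arrays (-1.26, SE 0.25, adjusted p = 0.101). Top2a, the topoisomerase that untangles sister chromatids, differed least of the 3, at 3.49 and 3.26 in the labelled knockout arrays, against 4.24 and 4.18 in the control arrays (-0.83, SE 0.23, adjusted p = 0.207).

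The kinetochore and centromere genes were the widest role group, from -1.74 to -0.86 with a median of -1.12 over 9 genes. That width rests on Nuf2 alone, and the next largest difference was -1.30 for Ndc80. The NDC80 complex, which grips spindle microtubules, is made of the products of Ndc80, Nuf2, Spc24 and Spc25. Ndc80 had 1.68 and 1.61 in the labelled knockout arrays, against 2.86 and 3.04 in the control arrays (-1.30, SE 0.21, adjusted p = 0.0656). Spc24 had 0.66 and 0.55 in the labelled knockout arrays, against 1.72 and 1.72 in the control arrays (-1.12, SE 0.20, adjusted p = 0.0824). In both genes the arrays of a group were within 0.19 log2 units of each other, and Spc25 lay at the similar difference of -1.12. Nuf2 had the largest mean difference and the least certain, with 1.48 and 3.76 in the labelled knockout arrays, against 3.59 and 5.14 in the control arrays (-1.74, SE 0.79, adjusted p = 0.481). Labelled knockout replicate 2 was above control replicate 1 for Nuf2, so the groups overlapped on this cluster. Its other transcript cluster differed by -0.76 with no overlap, at 1.26 and 1.83 in the labelled knockout arrays, against 2.01 and 2.61 in the control arrays.

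Of the centromere genes, Cenpa encodes the histone H3 variant that marks centromeres and was the least different of the kinetochore group. It had 4.32 and 3.55 in the labelled knockout arrays, against 5.0 and 4.59 in the control arrays (-0.86, SE 0.33, adjusted p = 0.397), and its 4 transcript clusters ranged from -1.5 to -0.86. Cenpe, a kinetochore motor protein gene, lay at -1.08, and Cenpf, whose product joins kinetochores in G2 and mitosis, at -0.96. Cenpm (-1.22) and Cenpk (-1.09) encode parts of the inner kinetochore network.

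The spindle checkpoint and the anaphase-promoting complex it restrains were represented by 6 genes with a median of -0.97. Bub1, a checkpoint kinase at kinetochores, differed most, with 2.42 and 2.49 in the labelled knockout arrays, against 3.51 and 3.69 in the control arrays (-1.14, SE 0.22, adjusted p = 0.0942). Cdc20, the activator through which the complex acts and the target of the checkpoint, differed least, with 2.28 and 2.62 in the labelled knockout arrays, against 2.89 and 3.69 in the control arrays (-0.84, SE 0.32, adjusted p = 0.383). The control arrays of Cdc20 were 0.80 apart, about as far as the mean difference between the groups. Its other transcript cluster differed by -0.97, and on that cluster Cdc20 was not the least different of the 6. Ttk, the checkpoint kinase MPS1, lay at -1.07, Mad2l1, which encodes the Cdc20 inhibitor MAD2, at -1.0, Ube2c, the ubiquitin-conjugating enzyme of the complex, at -0.94, and Bub1b (BUBR1) at -0.88.

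The chromosomal passenger complex corrects faulty attachments and later moves to the central spindle. Its 4 genes had a median of -1.21, and 3 of the 4 were among those at an adjusted p under 0.10. Aurkb, its kinase Aurora B, had 1.5 and 0.94 in the labelled knockout arrays, against 2.48 and 2.58 in the control arrays (-1.31, SE 0.25, adjusted p = 0.0963). Birc5, which encodes survivin, had 1.25 and 1.23 in the labelled knockout arrays, against 2.33 and 2.74 in the control arrays (-1.29, SE 0.23, adjusted p = 0.0824). The 2 genes differed in where their spread lay, between the labelled knockout arrays for Aurkb and between the control arrays for Birc5. Incenp, the scaffold of the complex, was nearest to 0, with 1.73 and 1.42 in the labelled knockout arrays, against 2.65 and 2.48 in the control arrays (-0.99, SE 0.22, adjusted p = 0.131), and Cdca8 (borealin) lay at -1.13.

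Spindle motors and microtubule-binding proteins had a median of -1.09 over 5 genes. Nusap1, a microtubule-bundling protein gene, had 1.72 and 2.13 in the labelled knockout arrays, against 3.12 and 3.47 in the control arrays (-1.37, SE 0.25, adjusted p = 0.0890). Its 2 other transcript clusters were dim on all 4 arrays and differed by -0.30 and -0.47. Kif2c, a microtubule-depolymerising kinesin, differed least, with 2.25 and 1.94 in the labelled knockout arrays, against 3.12 and 2.97 in the control arrays (-0.95, SE 0.23, adjusted p = 0.152). The bipolar spindle motor Kif11 (-1.09), the spindle assembly factor Tpx2 (-1.13) and the chromosome-bound kinesin Kif4 (-1.03) lay between them.

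The central spindle and cytokinesis genes had the median nearest to 0 of the role groups, -0.93 over 5 genes. Prc1, which crosslinks the microtubules of the central spindle, had 3.59 and 3.44 in the labelled knockout arrays, against 4.62 and 4.64 in the control arrays (-1.11, SE 0.23, adjusted p = 0.109). Ect2, the exchange factor that activates RhoA at the cleavage site, had 1.95 and 1.87 in the labelled knockout arrays, against 2.62 and 2.61 in the control arrays (-0.70, SE 0.20, adjusted p = 0.229). In both genes the arrays of each group were within 0.16 log2 units, so the smaller difference of Ect2 did not come with a wider spread. Kif23, a kinesin of the centralspindlin complex, lay at -0.95, Kif20a, another central spindle kinesin, at -0.93, and Anln, the actin-binding scaffold of the contractile ring, at -0.91. Whether role groups differ from each other was not tested.

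**Figure D2:**
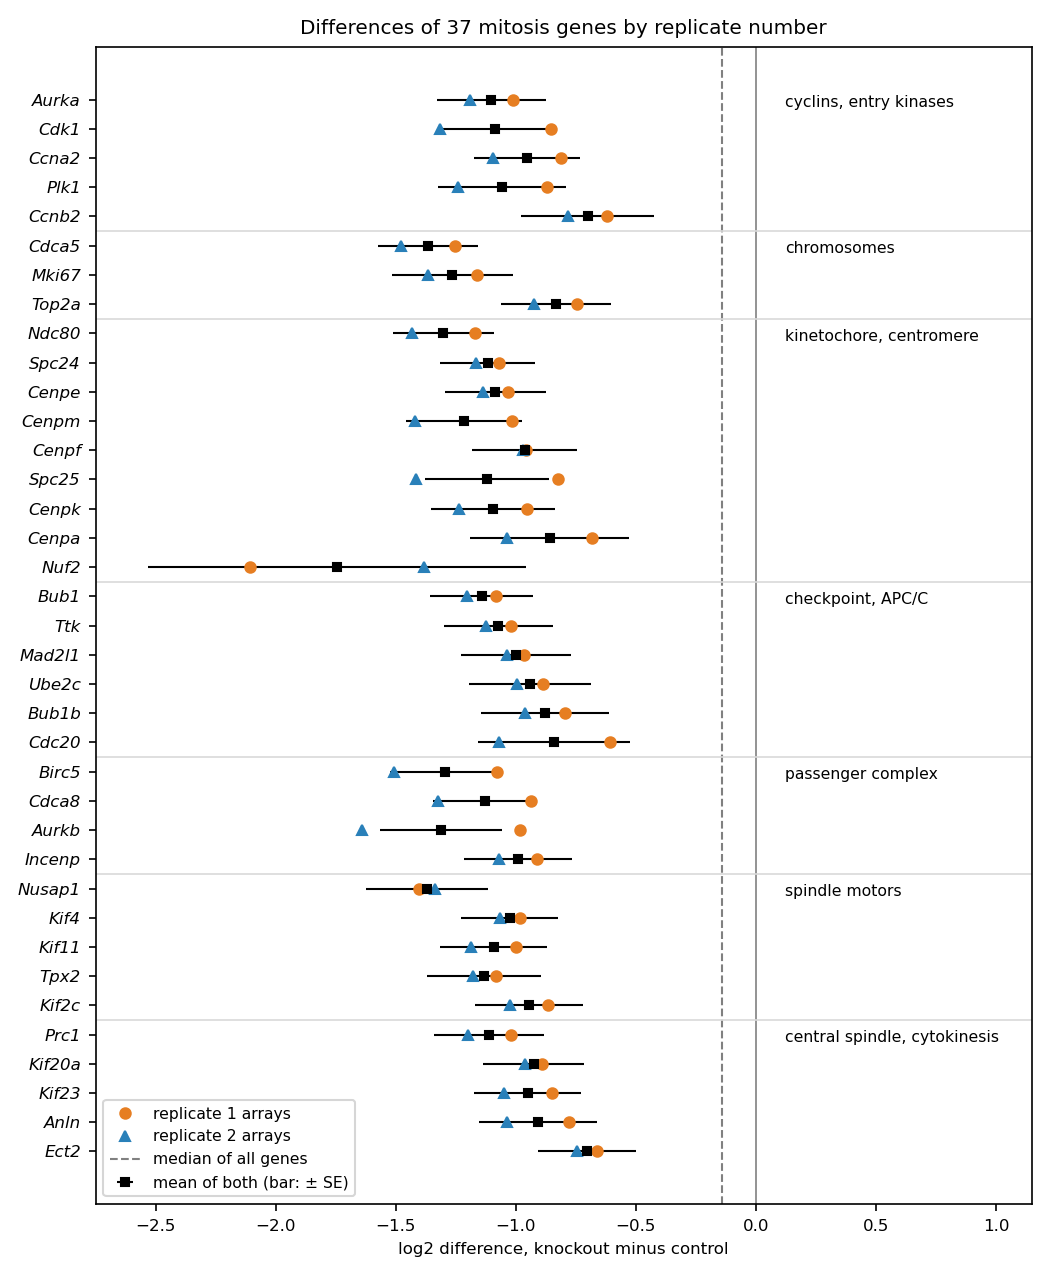
Log2 difference, labelled knockout minus control (x axis), of each of the 37 mitosis genes for replicate 1 (circles), for replicate 2 (triangles) and as the mean of both with its limma SE (squares and bars), and the dashed line marks the median of all genes at -0.14. Every point lies at or below -0.61, and the triangle is left of the circle in 35 of 37 genes.

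Further mitotic genes and DNA replication genes, from lists of other cell cycle genes, mostly had lower mean signals as well. Of 82 measured further mitotic genes, 79 were below 0 with a median of -0.89, and 54 were at least 1.5-fold lower within both replicate numbers, where 4.22% of all genes were. In limma 0 of the 82 passed an adjusted p of 0.05 in either direction, and 61 were lower and 0 higher at an unadjusted p under 0.05, against 7.84% lower and 3.6% higher among all genes. Smallest in p was Kif18a, a kinesin that limits chromosome movement, with 1.01 and 0.88 in the labelled knockout arrays, against 2.28 and 2.46 in the control arrays (-1.42, SE 0.21, adjusted p = 0.0514). The kinase gene Melk followed (-1.47, SE 0.22, adjusted p = 0.0575). With 1 array left out, 9 of the 82 were called lower without labelled knockout replicate 1, 1 without labelled knockout replicate 2, 11 without control replicate 1 and 16 without control replicate 2, beside the 183, 186, 374 and 301 of all genes.

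Of 37 measured DNA replication genes, which act in S phase before mitosis, 37 were below 0 with a median of -0.95, with -0.86 between the replicate 1 arrays and -1.06 between those of replicate 2. In limma 0 of the 37 passed an adjusted p of 0.05 in either direction, and 34 were lower and 0 higher at an unadjusted p under 0.05, against the same 7.84% and 3.6% of all genes. Mcm10, a replication origin factor (-1.30, adjusted p = 0.0700), and Cdc6, which helps to load the replicative helicase (-1.17, adjusted p = 0.0795), had the smallest p. With 1 array left out, 5 of them were called lower without labelled knockout replicate 1, 0 without labelled knockout replicate 2, 8 without control replicate 1 and 8 without control replicate 2, beside those same numbers of all genes. The mitosis and replication medians differ by 0.14 log2 units, and that difference was not tested.

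Among 18 genes of cyclin D, the G1 kinases and the Rb-E2F pathway, which decide entry into the cycle, the median was -0.66. Cdk6, a G1 kinase gene, fell, with 0.76 and 0.75 in the labelled knockout arrays, against 2.44 and 2.25 in the control arrays (-1.59, SE 0.20, limma adjusted p = 0.0369), and was the 1 gene of these lists past the threshold. This call was lost after quantile normalization (limma adjusted p = 0.0987), with centring on all transcript clusters (0.176) and with the replicate number as a block (0.0574). It was also lost with dim genes left out (0.0690), a filter that dropped genes with a mean under that of the median gene. Differences in those fits were -1.59 to -1.41. This list held differences from -1.83 to 0.77, so unlike the 37 mitosis genes it had members on both sides of 0. The 7 CDK inhibitor genes had a median of -0.28, and Cdkn1c, which encodes the inhibitor p57, was the one of smallest p, with 4.33 and 4.62 in the labelled knockout arrays, against 2.92 and 3.14 in the control arrays (1.44, SE 0.24, adjusted p = 0.0727). Cdkn2c, an inhibitor gene of the G1 kinases, lay at -0.48 (adjusted p = 0.446).

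**Figure D3:**
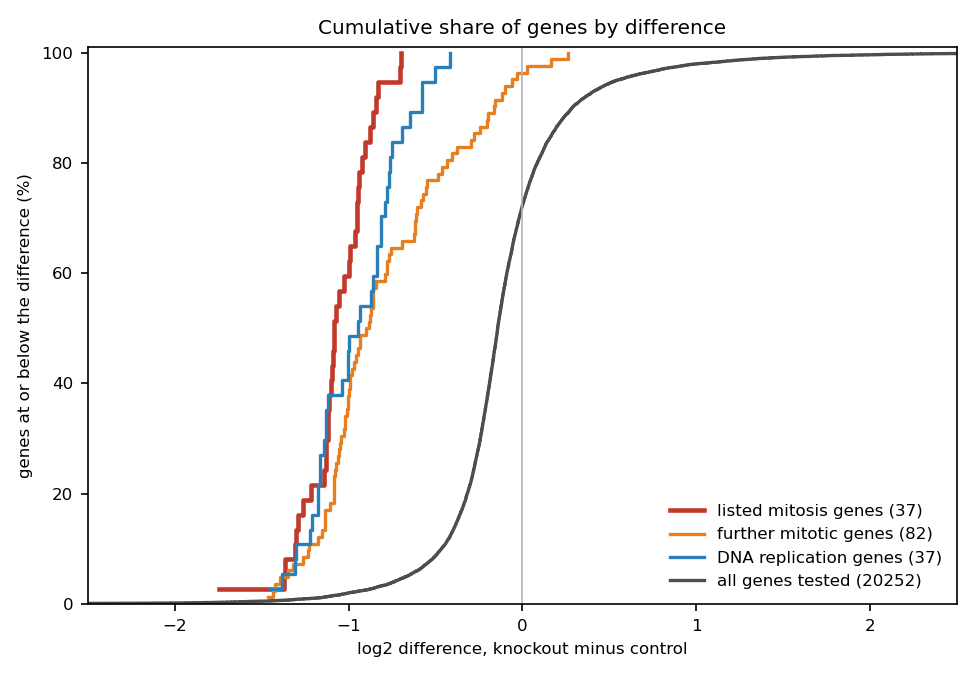
Cumulative share of genes (y axis, %) at or below each log2 difference, labelled knockout minus control (x axis), for the 37 mitosis genes, 82 further mitotic genes, 37 DNA replication genes and all 20252 genes tested. The mitosis curve rises steeply around its median of -1.08 and is complete at -0.70, while the curve of all genes rises around -0.14.

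These arrays measured whole neuroretina, in which fewer dividing cells and less of each transcript per dividing cell cannot be told apart. Retinal progenitor markers had a median difference of -1.11, with -1.17 between the replicate 1 arrays and -1.01 between those of replicate 2. Of these 9 genes Six6 (-3.77, limma adjusted p = 0.00922) and Rax (-2.29, adjusted p = 0.0369), both homeobox genes of the eye field, fell. Neither call held after quantile normalization (adjusted p = 0.0879 for Six6 and 0.136 for Rax) or with centring on all transcript clusters (0.0735 and 0.112), and that of Rax was also lost with dim genes left out (0.104) and with the replicate block (0.0516). Retinal neuron markers had a median of -0.03 over 13 genes, with -0.29 between the replicate 1 arrays and 0.17 between those of replicate 2. They were not uniform, and 7 of the 13 lay below 0. Smallest in p were Isl1 (-1.35, limma adjusted p = 0.0762) and Dcx (0.71, adjusted p = 0.496).

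Lists of markers of tissue around the retina had pooled median differences above 0, but 0 of their genes passed an adjusted p of 0.05 in limma, and the lowest adjusted p per list ran from 0.0502 (pigment epithelium) to 0.444 (muscle). Signals of 11 periocular mesenchyme markers, as multiples of the median gene, summed to 149.3 and 22.7 in labelled knockout replicates 1 and 2, against 11.4 and 10.8 in the control arrays, and 10 pigment epithelium markers summed to 55.6 and 21.9 against 8.04 and 16.6. Sums in the same order were 36.5 and 23.8 against 35.6 and 30.8 for vascular markers, 27.3 and 7.19 against 6.72 and 6.85 for muscle markers, and 13.3 and 15.5 against 9.04 and 10.5 for macrophage and microglia markers. The vascular sum was thus lower in labelled knockout replicate 2 than in either control array. The vascular receptor gene Kdr, picked out after its values were seen, lay at -0.87 (SE 0.28, adjusted p = 0.285). Kdr had the highest signal of the vascular markers on each of the 4 arrays, so it weighed most in these sums. The other 9 vascular markers went the opposite way, with both labelled knockout signals above both control signals. Vascular sums without Kdr were not worked out. By replicate number (1, then 2), median differences were 3.32 and 0.93 for mesenchyme, 1.88 and 0.28 for pigment epithelium, 1.20 and 0.46 for 10 vascular markers, 1.53 and 0.01 for 9 muscle markers and 0.43 and 0.58 for 10 macrophage and microglia markers. Of these lists, 9 mesenchyme, 7 pigment epithelium, 9 vascular, 5 muscle and 6 macrophage genes had both labelled knockout signals above both control signals, against 10.1% of all genes, and 0 to 2 genes per list were dim on all 4 arrays. The mitosis genes were lower by more in replicate 2 (-1.16) than in replicate 1 (-0.96), and retinal progenitor markers by less (-1.01 against -1.17). The median differences of mesenchyme, pigment epithelium, vascular and muscle markers were smaller in replicate 2. What part these cells had in the pooled differences was not tested.

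What the mitosis genes share beyond their roles was looked for in their promoters. Promoter windows, 250 bases before to 50 bases after an annotated start, were matched by symbol in a RefSeq table (build GRCm38.p6) for 31 of the 37 genes and for 15649 of the genes tested. The cell cycle genes homology region (CHR) is bound by the DREAM and MuvB complexes, which hold mitotic genes silent in resting cells and switch them on in G2. It was searched as TTTGAA or TTCGAA, the CCAAT box bound by the factor NF-Y as CCAAT, and the E2F site, typical of genes of the G1 to S step, as TTTCCCGC, TTTCGCGC, TTTGCCGC or TTTGGCGC, each on both strands. Among the members' windows 1 pair of matches of different motifs overlapped, in Cdca8. A match describes the letters and not binding.

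The 150 bases before the annotated start are shown for 1 gene from each role group with a CHR match there, so that the spacing of the motifs can be read, 5′ to 3′ along the gene with CHR, CCAAT and E2F matches in capitals. Cdk1 is at chr10:69352913-69353062 (- strand), Cdca5 at chr19:6084947-6085096 (+ strand), Cenpm at chr15:82244337-82244486 (- strand), Cdc20 at chr4:118437344-118437493 (- strand), Kif11 at chr19:37376232-37376381 (+ strand) and Prc1 at chr7:80294326-80294475 (+ strand).
Cdk1: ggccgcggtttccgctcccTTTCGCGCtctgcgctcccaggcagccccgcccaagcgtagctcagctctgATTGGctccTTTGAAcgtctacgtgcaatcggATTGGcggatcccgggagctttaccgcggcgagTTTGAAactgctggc
Cdca5: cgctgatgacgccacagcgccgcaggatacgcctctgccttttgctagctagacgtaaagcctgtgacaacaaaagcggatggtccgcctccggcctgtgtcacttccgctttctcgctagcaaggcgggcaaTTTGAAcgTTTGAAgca
Cenpm: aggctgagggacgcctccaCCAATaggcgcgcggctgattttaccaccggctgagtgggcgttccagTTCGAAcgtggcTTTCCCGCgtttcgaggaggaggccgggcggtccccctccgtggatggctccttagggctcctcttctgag
Cdc20: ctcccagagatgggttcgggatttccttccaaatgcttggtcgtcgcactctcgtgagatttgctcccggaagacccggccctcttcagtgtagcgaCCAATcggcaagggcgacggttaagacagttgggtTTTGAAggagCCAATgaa
Kif11: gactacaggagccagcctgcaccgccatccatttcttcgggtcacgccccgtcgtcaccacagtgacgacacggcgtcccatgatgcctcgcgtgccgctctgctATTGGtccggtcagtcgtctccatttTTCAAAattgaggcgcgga
Prc1: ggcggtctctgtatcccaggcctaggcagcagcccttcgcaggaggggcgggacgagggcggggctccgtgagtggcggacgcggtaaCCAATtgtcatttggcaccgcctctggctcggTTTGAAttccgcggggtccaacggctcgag
Cdk1 held each of the 3 motifs, with 2 CHR matches, 2 CCAAT boxes and 1 E2F site in this stretch. Cdca5, the member of smallest p, had 2 CHR matches a few bases apart close to the start and no CCAAT box. Cdc20, Kif11 and Prc1 had a CCAAT box upstream of a CHR match. The CHR of Cenpm, TTCGAA, stood a few bases before an E2F match.

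A CHR match was present in 25 of the 31 mitosis genes (80.6%), against 18.8% of all genes with a window. It began within 50 bases of the start in 22 of 31 (71.0%), against 4.92% of all genes. A CCAAT box was present in 23 of 31 (74.2%), against 41.6%, and both motifs in 21 of 31 (67.7%), against 7.64%. Of the 68 further mitotic genes with a window, 37 (54.4%) held a CHR match. Of 31 replication genes with a window, 6 held a CHR match (19.4%), 19 a CCAAT box (61.3%) and 13 an E2F match (41.9%), where the mitosis genes had an E2F match in 2 of 31 (6.45%, Cdk1 and Cenpm) and all genes in 3.43%. No test was made of these shares.

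**Figure D4:**
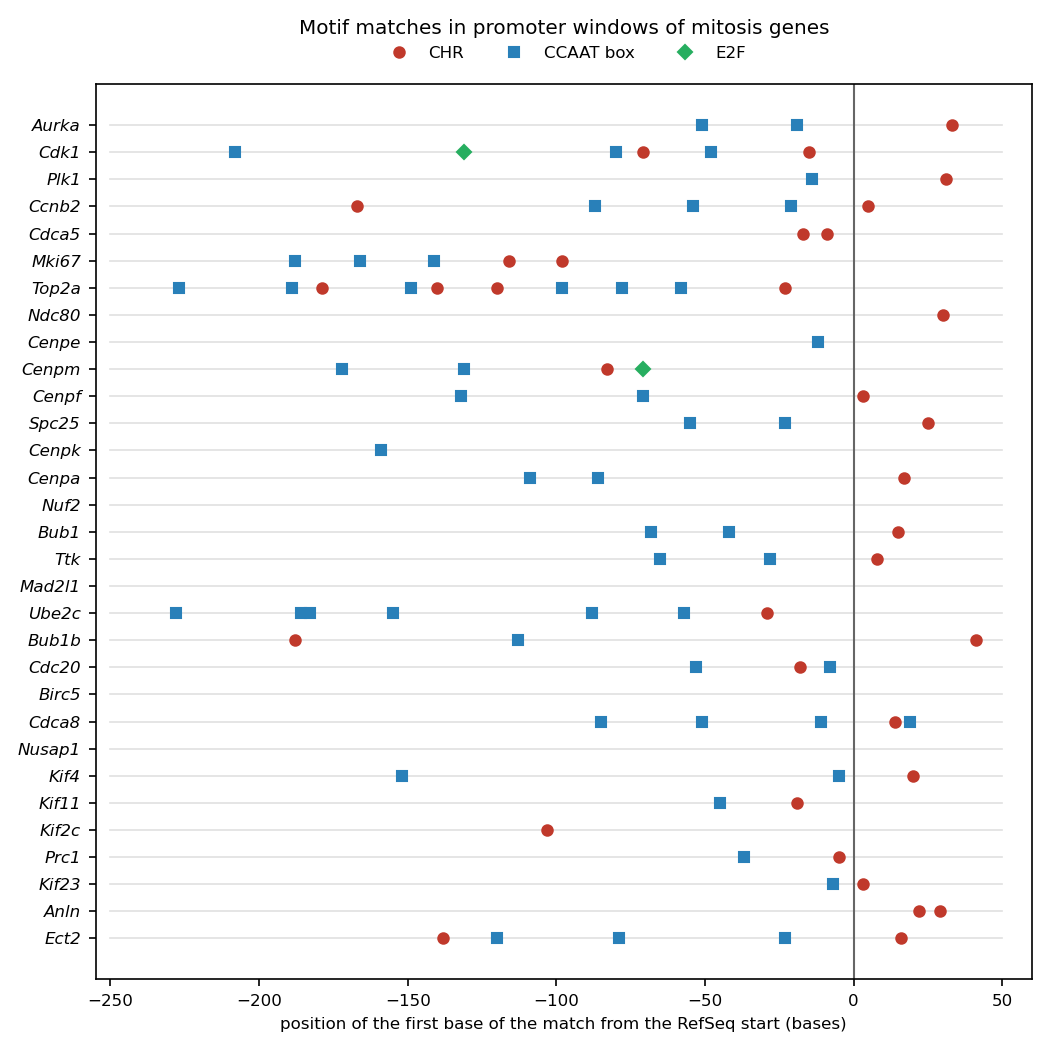
Position of CHR (circles), CCAAT box (squares) and E2F (diamonds) matches on either strand, in bases from the RefSeq start (x axis), for 31 mitosis genes (rows), with the lowest-numbered window shown where a gene has several. CHR matches gather close to the start, with a median first base at -12, and CCAAT boxes lie further upstream, with a median of -69.5 over all windows.

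**Figure D5:**
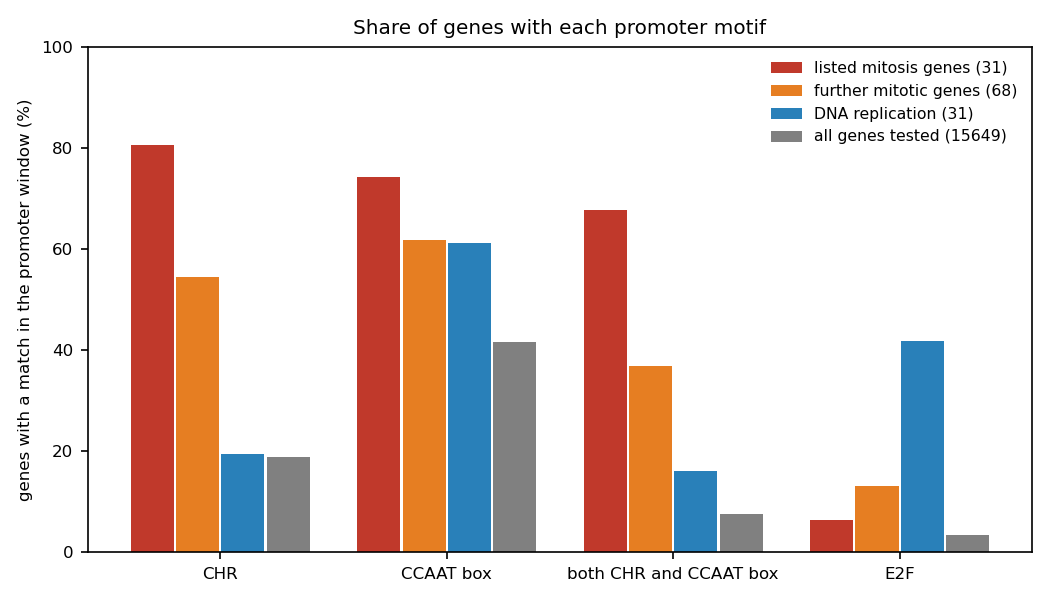
Share of genes (y axis, %) with a match to each motif in the promoter window, for 31 mitosis genes, 68 further mitotic genes, 31 replication genes and all 15649 genes with a window. The CHR bar is 80.6% for mitosis genes and 19.4% for replication genes, and the E2F bar is 6.45% and 41.9%.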

How the data were processed

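Total RNA of embryonic day 13.5 neuroretina was depleted of ribosomal RNA, biotin-labelled by the Affymetrix whole-transcript method and measured on 4 arrays, per the labels' protocols. The deposited values are log2 signals per transcript cluster, and RMA, Partek and the build mm9 are named, without versions, in the submitters' processing notes. Of 112205 clusters 25513 had 1 gene symbol in a platform annotation table, 2290 had several and 84402 were unnamed here, and 24917 matched the GRCm38.p6 RefSeq gene table by Entrez identifier. Groups and replicate numbers came from sample titles. The members and lists were chosen with earlier results of these data known.

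Because array levels followed the replicate number, each array was centred on its median over the 20252 genes. The test was limma 3.58.1 under R 4.3.3 (lmFit, then eBayes with an intensity trend, genotype as the only term, two-sided, Benjamini-Hochberg over all genes, threshold 0.05). "Rose" and "fell" are used of genes past this threshold. No dim genes were left out. All members could be named, with all 4 signals for those of largest and smallest difference per role group, and from other lists genes past the threshold or else the 2 of smallest p. Signals of Cdk1, Mki67, Ndc80, Spc24 and Birc5 were added after their values were seen. In simulated arrays with 200 changed genes, 117 calls were made, 3.42% of them false. Of 50 genes each, 2 were found at a change of 1 log2 unit, 30 at 2 units, 35 at 3 and 46 at 4. In that setting a change near the members' differences was thus rarely called. The simulated noise was independent between arrays. The real arrays shared deviations by replicate number and had 2316 genes at an unadjusted p under 0.05 in limma. The shares found in simulation therefore need not hold for the real arrays. Precision is limited by having only 4 arrays.

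Alternatives covered no centring, quantile normalization, another centring, the variance prior, the rule for several clusters, a filter on dim genes, the replicate number as a block, the threshold and each array left out. The filter dropped genes with a mean under that of the median gene and kept 10126. Elsewhere, dim means under the 75th percentile of all clusters.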

Additional observations from a re-analysis of the deposited data

How the results depend on the processing

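All 37 mitosis genes stayed below 0 in each of the 11 other fits (407 of 407 values), and 31 of those values passed an adjusted p of 0.05. Their median difference, -1.08, was -1.01 on deposited values with no centring, -0.97 after quantile normalization, -0.91 with centring on all transcript clusters and -0.98 with dim genes left out, and -1.12 to -1.01 with 1 array left out. The median of all genes, -0.14, was -0.06, -0.02 and 0.03 under the first 3, and the members stood 0.94 to 0.96 below it on each of those scales. The cause of differing counts was not tested. Mitosis genes called lower, 0 at an adjusted p of 0.05, were 6 with no centring (Aurkb, Birc5, Cdca5, Ndc80, Nuf2 and Nusap1), 1 without the intensity trend (Cdca5), 9 at an adjusted p of 0.10, and 1 to 15 with 1 array left out. In no fit was a mitosis gene called higher. With no centring, limma's prior degrees of freedom were infinite, against 4.57 in the main fit, so each gene's own spread had no weight in those calls. Nuf2, whose groups overlapped, was among the 6 mitosis genes called there. Further mitotic genes called lower, 0 in the main setting, were 6 with no centring, 1 without the trend, 1 with the mean of clusters, 13 at 0.10 and 1 to 16 with 1 array left out. Replication genes called lower, 0 likewise, were 3 with no centring, 5 at 0.10 and 0 to 8 with 1 array left out. Among all genes, 66 lower and 52 higher became 158 and 257 with no centring, 0 and 0 after quantile normalization (2318 at an unadjusted p under 0.05) and 0 and 0 with centring on all clusters (1959). They were 4 and 2 with dim genes left out, 205 and 145 at 0.10, and 183 to 374 and 264 to 455 with 1 array left out.

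The groups share replicate numbers, but no label says what a number marks and there are only 2 pairs. Deviations of same-numbered arrays from their group means correlated at 0.479 over all genes and 0.896 over the mitosis genes. Nuf2 weighs heavily on the second value. Its SD was 1.61 between the labelled knockout arrays and 1.09 between the control arrays, against at most 0.54 and 0.57 in any other member. The correlation without Nuf2 was not worked out. With the replicate number as a block, 11 genes were lower and 6 higher at 0.05, with 0 mitosis, 0 further mitotic and 0 replication genes. With the block at 0.10, a setting chosen after seeing the data, 578 genes were lower and 220 higher, among them 33 mitosis, 46 further mitotic and 22 replication genes, all lower.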

Other observations

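Of the 31 mitosis genes with a promoter window, 6 held no CHR match: Birc5, Cenpe, Cenpk, Mad2l1, Nuf2 and Nusap1. Their median log2 difference, labelled knockout minus control, was -1.19, and that of the 25 genes with a match was -1.06. In 4 of the 6 (all but Cenpe and Cenpk) none of the 3 motifs was found, which says only that these letters are not in this window. Plk1 had a second transcript cluster with a difference of -0.52, beside -1.06 for the one used.

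Genes of the G1 list other than Cdk6 included Ccnd1, the cyclin D1 gene, with centred signals of 3.58 and 2.97 in the labelled knockout arrays, against 5.43 and 4.79 in the control arrays (-1.83, SE 0.33, limma adjusted p = 0.0873). Ccnd2, the cyclin D2 gene, lay at 0.77 (SE 0.26, adjusted p = 0.312), with 1.16 in replicate 1 and 0.38 in replicate 2. Cdk4, which encodes the other G1 kinase, lay at -0.18 (adjusted p = 0.781). These genes were chosen after their values were seen.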
